A study of Homo sapiens with 4 samples.

Results

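The 5 loci that encode the antigen receptors of B and T cells were examined in the 5hmC-Seq data of FADU, an epithelial line of human hypopharyngeal squamous carcinoma cells. These are the immunoglobulin heavy chain (IGH), kappa (IGK) and lambda (IGL) loci and the T cell receptor alpha and delta (TRA/TRD) and beta (TRB) loci. 5hmC-Seq enriches genomic DNA that carries 5-hydroxymethylcytosine (5hmC), the oxidation product that the TET enzymes make from 5-methylcytosine, and sequences it. The labels name an antibody to 5-methylcytidine where the methods describe chemical labeling of 5hmC, so which mark was enriched is not settled. Cells with a scrambled control or with TET1 knockdown (TET1-si) were kept under normoxia or under hypoxia with 1% O2, for 18 h in the control and 19 h in the knockdown, and each of the 4 conditions had 1 library. The deposited table holds 956365 windows of 500 bp of hg19 with 4 value columns. The column names match no sample label, so that their values were not used and the conditions are not compared. What is described is which windows the table contains, termed listed windows below. The rule by which a window entered the table is not described in the sources used here, although the table's name carries a minimum of 20 without saying of what, and a window that is not listed may still have had reads.

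The members were chosen by position alone, as the listed windows in IGH (chr14:105990001-107290000), TRA/TRD (chr14:22090001-23030000), IGK (chr2:89100001-90300000), IGL (chr22:22380001-23270000) and TRB (chr7:142000001-142520000). There were 802 such windows among the 9700 windows of the loci, which were 222 in IGH, 279 in TRA/TRD, 98 in IGK, 118 in IGL and 85 in TRB. No listed window lay among those with undetermined bases, which numbered 401 in IGK, 202 in TRB and 1 in IGH, and shares below are of the other 9096 windows.

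Each receptor chain is assembled in lymphocytes by joining variable (V), diversity (D, in some chains) and joining (J) segments, which are then spliced to constant region exons. Recombination signals beside each segment, made of a heptamer, a spacer and a nonamer, guide the joining, and the heavy chain later exchanges its constant region by recombination between repetitive switch regions. In an epithelial cell these loci are expected to stay in germline order. Their V segments arose by repeated duplication, so that many parts of the loci resemble other parts.

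Stretches of the repeats and of the CpG-rich windows that the results below turn on are shown from the + strand of GRCh37, whose coordinates are those of hg19 on these chromosomes. They are extremes in CpG or repeat number and do not stand for most listed windows. Each is the stretch of 150 bases with the most marked motifs in its window. The first is the CATTC repeat of the block between the IGK V groups, with CATTC and its reverse complement in capitals. It lies in the listed window with the most such motifs among those unique to 50-base reads. The next 3 are CpG-rich stretches outside annotated exons, with CpG in capitals. They come from a listed window of the IGH end that holds TMEM121, from an unlisted window of the IGH V segment domain and from a listed window upstream of the TRB J segments. The last 2 are neighbouring windows of the switch region upstream of IGHA1, with AGCT in capitals, of which the first is listed and the second is not.
IGK repeat block, listed (chr2:89871067-89871216): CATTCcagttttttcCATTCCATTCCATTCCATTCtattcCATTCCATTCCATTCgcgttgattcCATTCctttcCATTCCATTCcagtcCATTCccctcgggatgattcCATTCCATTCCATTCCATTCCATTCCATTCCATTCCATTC
IGH at TMEM121, listed (chr14:105994806-105994955): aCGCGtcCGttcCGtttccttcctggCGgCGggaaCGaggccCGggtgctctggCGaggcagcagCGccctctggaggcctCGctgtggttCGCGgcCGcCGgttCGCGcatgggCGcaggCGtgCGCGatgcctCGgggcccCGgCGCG
IGH V segment domain, not listed (chr14:107253099-107253248): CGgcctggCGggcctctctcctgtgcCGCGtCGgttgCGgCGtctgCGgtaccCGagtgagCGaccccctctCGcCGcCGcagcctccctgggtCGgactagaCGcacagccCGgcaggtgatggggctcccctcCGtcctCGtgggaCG
TRB upstream of the J segments, listed (chr7:142491113-142491262): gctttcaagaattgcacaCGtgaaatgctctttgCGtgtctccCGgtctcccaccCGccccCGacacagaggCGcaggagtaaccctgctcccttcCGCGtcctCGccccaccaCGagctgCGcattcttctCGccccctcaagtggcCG
IGHA1 switch region, listed (chr14:106176703-106176852): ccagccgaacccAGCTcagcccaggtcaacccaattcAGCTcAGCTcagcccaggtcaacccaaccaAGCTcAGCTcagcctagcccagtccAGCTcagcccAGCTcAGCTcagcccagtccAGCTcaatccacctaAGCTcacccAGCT
IGHA1 switch region, not listed (chr14:106176116-106176265): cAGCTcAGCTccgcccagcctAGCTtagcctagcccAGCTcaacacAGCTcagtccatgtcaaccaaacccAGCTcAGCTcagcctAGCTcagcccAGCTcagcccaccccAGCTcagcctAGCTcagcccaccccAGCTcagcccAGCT

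The windows of these 6 stretches hold 10, 61, 43, 18, 2 and 3 CpG sites, in that order. The listed IGHA1 switch window has fewer CpG sites than the unlisted window of the IGH V segment domain.

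In IGH, IGK, IGL and TRB fewer windows were listed than windows of like base composition elsewhere, whereas TRA/TRD was close to them. Of all autosomal windows without an undetermined base 17.6% were listed. The listed share rose with the number of CpG sites up to the class of 10 to 19 (45.7%) and was 44.4% at 20 or more. A predicted share was therefore taken for each window as the share listed among all autosomal windows with the same CpG number and GC content. In IGH 222 of 2599 windows were listed (8.54%, 95% Wilson interval 7.53% to 9.68%) against a predicted 25.9%, a ratio of listed to predicted share of 0.330. IGL had 118 of 1780 windows listed (6.63%, 5.56% to 7.88%) against a predicted 23.1%, a ratio of 0.287. IGK had 98 of 1999 (4.90%, 4.04% to 5.94%) against 15.1%, a ratio of 0.324. TRB had 85 of 838 (10.1%, 8.28% to 12.4%) against 17.9%, a ratio of 0.567. TRA/TRD had 279 of 1880 (14.8%, 13.3% to 16.5%) against 13.3%, a ratio of 1.12. The intervals treat windows as independent, although neighbouring windows can share fragments, and they leave out the variation between libraries.

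The chromosomes themselves differed in how much of them was listed, which were 30.8% of chromosome 14, 10.8% of chromosome 2, 43.3% of chromosome 22 and 14.4% of chromosome 7. Outside the loci the ratio of listed to predicted share was 1.82 on chromosome 14, 0.675 on chromosome 2, 1.37 on chromosome 22 and 0.824 on chromosome 7. When the prediction was taken from the rest of the same chromosome, the ratio was 0.208 in IGH, 0.508 in IGK, 0.196 in IGL, 0.714 in TRB and 0.556 in TRA/TRD. The listed share of TRA/TRD (14.8%) was thus below that of all autosomal windows and near the prediction from its composition, and it was below the prediction from its own chromosome. Its flanks of the same length had a ratio of 1.22 on the lower and 1.14 on the upper side. The lower flank of IGH had 1527 of 2600 windows listed (58.7%) and a ratio of 1.22, and the upper flank holds no window free of undetermined bases. The flanks of IGL had ratios of 0.538 and 0.769, and those of TRB 0.596 and 0.832. Those of IGK had ratios of 0.591 and 0.208, but the upper one has only 389 windows free of undetermined bases, of which 1 is unique.

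The 50-base reads were kept by the authors only where they mapped to 1 place, so each window was also scored by its 50-base sequences that occur once in the genome. A window was called unique where at least 90% of them did. In a sample of 40000 autosomal windows 81.4% were unique. In the loci 61.6% were, which was 88.2% of TRA/TRD, 80.5% of TRB, 71.8% of IGL, 58.1% of IGH and 24.1% of IGK. Among unique windows alone 7.02% were listed in IGH against a predicted 21.2%, and 7.36% in IGL against 20.6%. In TRB they were 10.8% against 17.3%, and in TRA/TRD 15.5% against 12.3%. The share of unique IGK windows listed was 17.8% against 16.4%, and 82 of these 86 listed windows belonged to the repeat block described next. The low share in IGH, IGL and TRB was thus also present among unique windows. Windows that were not unique were listed as well, 18.1% of them in the autosomal sample against 17.5% of unique ones. In the loci it was 10.7% of them in IGH, 4.78% in IGL, 7.36% in TRB, 9.91% in TRA/TRD and 0.791% in IGK. Outside the repeat block of IGK 4 of 397 unique windows were listed (1.01%, 0.392% to 2.56%), a low share as well. In IGK a low number of unique windows moved with the low share of all its windows, and its part in the result was not tested.

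Nearly all listed windows of IGK formed 1 block of tandem repeats between its V groups. The IGK locus holds the V segments as a proximal group beside IGKC, the kappa constant gene, and a distal group that is largely an inverted copy of it. Between them the block extends over 49.5 kb (chr2:89830501-89880000), next to a gap of the assembly. It contains 96 windows with at least 10 copies of CATTC on either strand, a motif that makes up human satellites II and III of pericentromeric DNA. These windows hold 14 to 59 copies (median 37), while no other window of IGK holds more than 9. Of the 96 windows 93 were listed (96.9%, 91.2% to 98.9%), where 31.2 were predicted. The 3 that were not listed have 12 to 14 CpG sites and 26 or more copies, within the range of the listed ones. Another listed window lies in a short interruption of the repeat and 1 directly after its end. Without the block 5 of 1903 windows of IGK were listed (0.263%, 0.112% to 0.614%), against a predicted 271.5 windows.

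CATTC-rich windows make up 0.0587% of all autosomal windows. Outside the loci they were together listed more often than all windows, though not on every chromosome, and less often than in this block. There were 3058 of them outside the loci, of which 1537 were listed (50.3%, 48.5% to 52.0%). They hold a mean of 9.32 CpG sites, against 5.00 in the autosomal sample, and no prediction from composition was taken for them. By chromosome the share ranged from 11.4% on chromosome 13 to 88.9% on chromosome 21. On chromosomes 2, 3, 8, 11 and 13 it was below the 17.6% of all autosomal windows. On chromosome 2 outside IGK the number listed was 29 of 180 (16.1%, 11.5% to 22.2%), with a mean of 14.3 CpG sites per window as compared with 13.1 in the IGK block. On chromosome 21 it was 185 of 208 (88.9%) and on chromosome 16 it was 273 of 352 (77.6%). Of the unique windows on chromosome 21 169 of 176 were listed (96.0%, 92.0% to 98.1%), a share close to that of the IGK block. Unique windows gave the same order between the 2 groups of chromosome 2, with 82 of 85 listed in the IGK block (96.5%, 90.1% to 98.8%) and 17 of 68 outside it (16.2% to 36.4%). How many copies of such repeats FADU cells carry compared with the reference is not known from these data.

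The remaining IGK windows included every gene segment. None of the 76 V segments, of the 5 J segments or IGKC overlapped a listed window. In the proximal V domain 0 of 937 windows were listed, with an upper limit of the Wilson interval of 0.408% and a prediction of 13.6%. Of these windows 205 were unique, and for them the prediction was 11.1%. The distal V domain had 1 of 819 windows listed and 72 unique windows. The longest stretch without a listed window in any of the 5 loci ran for 477.0 kb (954 windows) from IGKC to IGKV2-40, with 40 V segments in it. Downstream of IGKC, where 79.6% of windows were unique, 2 of 113 windows were listed against 18.6 predicted.

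The IGH locus was listed at its constant region end and almost empty over its V segments. Downstream of IGHA2 55 of 126 windows were listed (43.7%, 35.3% to 52.4%), a ratio of 0.992. Over the constant genes it was 106 of 539 (19.7%, 16.5% to 23.2%; ratio 0.469), and over the J and D segments 23 of 126 (18.3%, 12.5% to 25.9%; ratio 0.381). The V segment domain, which spans 905 kb, had 38 of 1808 (2.10%, 1.54% to 2.87%), where 331.8 windows were predicted, a ratio of 0.115. Among its 1189 unique windows 27 were listed (2.27%), against a predicted 17.1%. The Wilson interval of the V domain did not overlap those of the other 3 domains. A stretch of 216.0 kb with 37 V segments from IGHV1-24 to IGHVIV-44-1 held no listed window, whereas its sequence predicted 77.0 and 62.0% of its windows were unique.

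**Figure D1:**
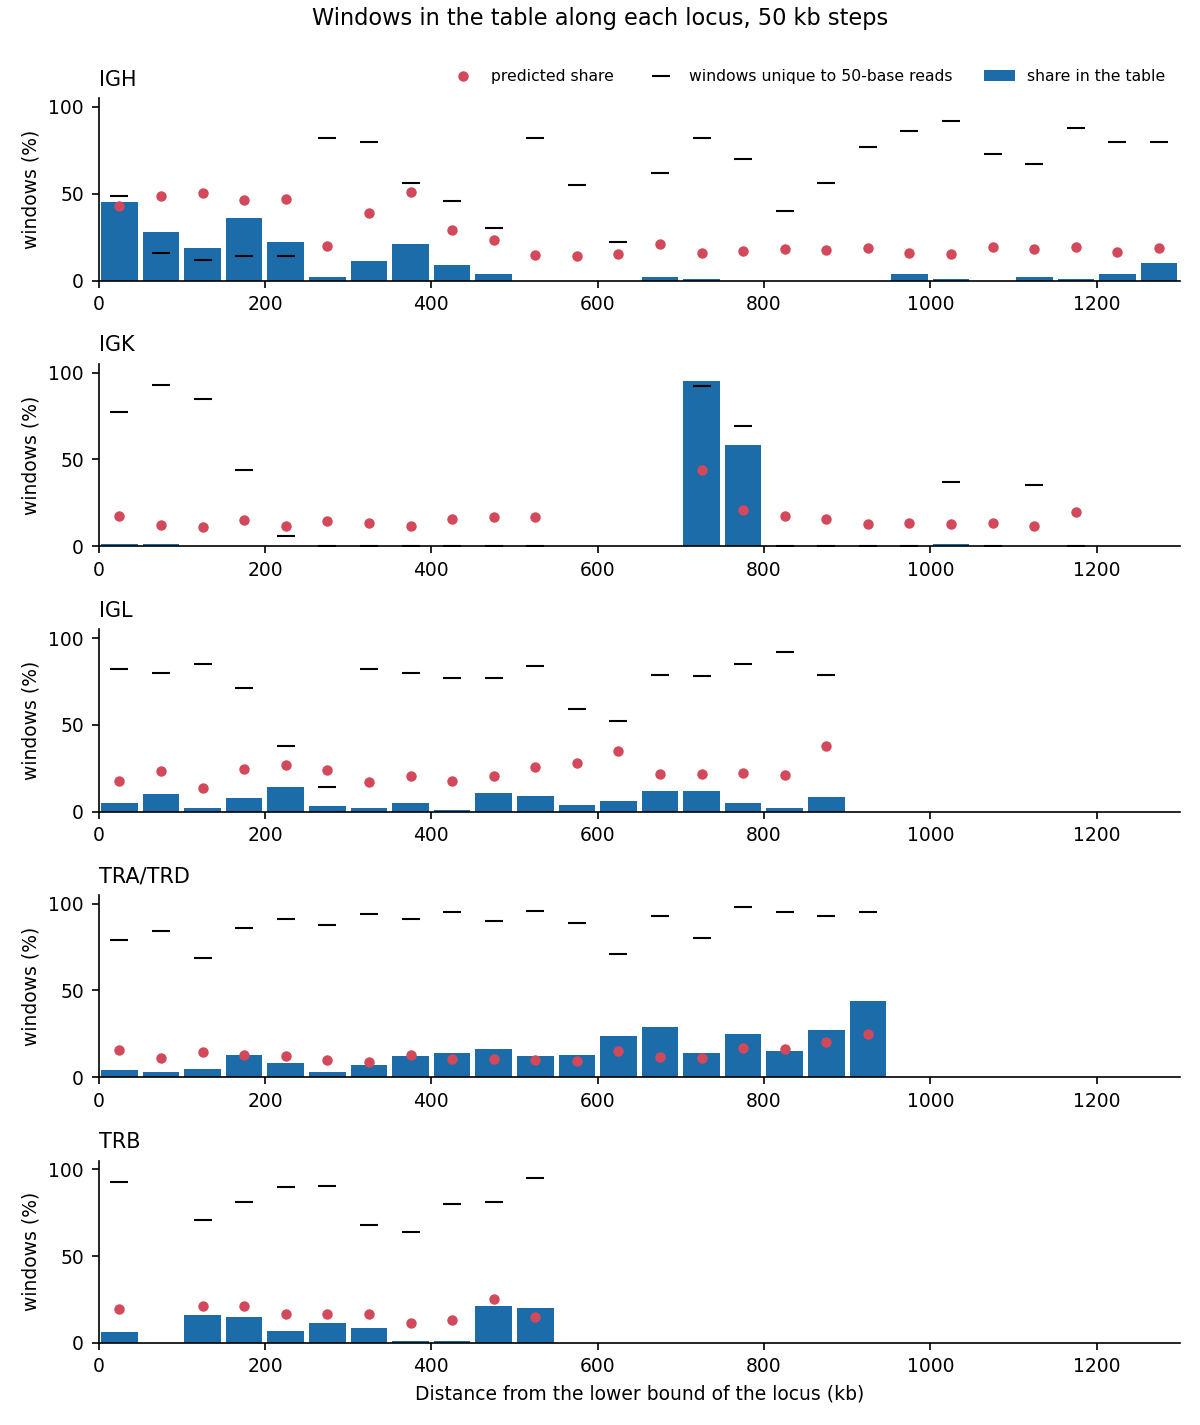
Share of windows in the table (blue bars), share predicted from CpG number and GC content (red points) and share of windows unique to 50-base reads (black dashes) in steps of 50 kb along each locus (x axis, distance from its lower bound in kb; y axis, percent of windows; steps with under 20 usable windows are left out). In IGH the bars are high at the constant region end and are 0 in 8 of 26 steps, in IGK they stand in the steps of the repeat block, and in TRA/TRD they rise towards the right end.

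Among the heavy chain genes, all 9 constant genes and both constant pseudogenes overlapped a listed window, but together they had fewer listed windows than predicted, 45 of 119 against 73.8 (ratio 0.610). IGHM, the constant gene of IgM, had 3 of 9 windows listed against 5.94 predicted, and IGHD, that of IgD, had 6 of 19 against 10.90, with all windows of both genes unique. IGHG3 had 8 of 15 windows listed against 9.43 predicted, IGHG1 4 of 14 against 8.69, IGHG2 4 of 12 against 8.15 and IGHG4 3 of 12 against 8.17, and these genes of the IgG subclasses had 1 to 4 unique windows each. IGHE, the constant gene of IgE, had 5 of 9 listed against 5.31 predicted, IGHA1 4 of 11 against 5.72 and IGHA2 2 of 4 against 2.83. The pseudogenes IGHGP and IGHEP1 had 4 of 12 against 7.63 and 2 of 2 against 1.03. As the subclass genes resemble each other, reads that fit more than 1 of them would not have been kept. The order of these genes is therefore not given. Over all IGH constant windows 12 of 43 unique ones (27.9%) and 33 of 76 others (43.4%) were listed, so that the unique ones were not the higher. The 6 windows of the 9 J segments, with a mean of 14.8 CpG sites, included no listed window, where 4.1 were predicted. Of the 27 D segments 4 overlapped a listed window, which were IGHD3-16, IGHD1-14, IGHD3-10 and IGHD6-6. The membrane protein gene TMEM121 at the lower end of the locus had 8 of 9 windows listed against 3.23 predicted, with 408 CpG sites in them.

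4 of the 128 IGH V segments overlapped a listed window. The pseudogene IGHV5-78 lay in a run of 4 listed windows, the pseudogene IGHVIII-76-1 in a run of 3 and the gene IGHV6-1, the V gene nearest to the D segments, in a run of 2. The other was IGHV4-61, of whose 2 windows none was unique. Its recombination signal and that of IGHV4-59, whose window was not listed, are shown 5′ to 3′ with heptamer and nonamer in capitals, to show how alike these duplicated segments are.
IGHV4-61 (chr14:107095085-107095123, - strand): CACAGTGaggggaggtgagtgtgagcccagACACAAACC
IGHV4-59 (chr14:107083215-107083253, - strand): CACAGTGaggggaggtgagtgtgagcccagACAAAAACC

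Each of these signals matches that of IGHV4-28 at 39 and 38 of its 39 bases, respectively. Both signals lie in windows with 19 CpG sites, and IGHV4-59 also has no unique window. The nonamer letters searched were ACAAAAACC, which occur on either strand in 1.32% of all autosomal windows and in 1.66% of the windows of the loci.

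The AGCT-rich windows of the switch regions were listed about as often as predicted. Windows with at least 15 copies of AGCT, a motif that recurs in mammalian switch regions, numbered 20 in IGH, and all lay upstream of the constant genes IGHM, IGHA1, IGHA2 and IGHE or the pseudogene IGHEP1, so that the switch regions of the IGHG genes are not covered. Of these 8 were listed (21.9% to 61.3%) against 6.5 predicted, as compared with 214 of the other 2579 windows of IGH (8.30%, 7.29% to 9.43%). Upstream of IGHA1 3 of 5 were listed, upstream of IGHE 2 of 4, upstream of IGHM 2 of 7, upstream of IGHA2 1 of 3 and upstream of IGHEP1 0 of 1. The windows hold 0 to 14 CpG sites. Such windows make up 0.00734% of all autosomal windows, and outside the loci 71 of 374 were listed (19.0%, 15.3% to 23.3%). The motif and its minimum number were chosen with the listing known.

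In TRA/TRD the listed share rose from the V end to the constant end. Of the 940 windows nearer to the V end, which hold TRAV segments and 3 olfactory receptor genes, 72 were listed (7.66%, 6.13% to 9.54%; ratio 0.642), and of the 940 nearer to the constant end 207 (19.5% to 24.8%; ratio 1.51). By domain the ratio was 0.988 over the TRAV segments, 1.38 between TRAV41 and TRDV2, 0.955 over the delta segments, 1.38 over the TRAJ segments and 1.90 at TRAC and downstream. At TRAC and downstream 23 of 32 windows were listed (71.9%, 54.6% to 84.4%), and the longest run of the locus, 14 windows, lay there. TRAC, the alpha constant gene, had 6 of 11 windows listed against 3.94 predicted. TRDC, the delta constant gene, had 0 of 7 against 1.26. Of the 60 J genes 19 overlapped a listed window, for example TRAJ24 with 2 of 2 and TRAJ46 with 1 of 1. Of the D segments TRDD1 and TRDD2 did, in 1 shared window, and TRDD3 did not.

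Among the TRA/TRD V segments 18 of 49 genes and 3 of 9 pseudogenes overlapped a listed window. Of their windows 29 of 125 were listed, near the prediction (ratio 1.12, 0.803 to 1.51). The pseudogene TRAV37 lay in a run of 10 listed windows, the gene TRAV40 in a run of 4 and the pseudogene TRAV28 in a run of 3. The longest stretch without a listed window had 88 windows and held TRAV2 and TRAV3. The olfactory receptor genes OR10G2 and OR4E2 at the lower end had 0 of 4 and 0 of 28 windows listed, and OR4E1 had 1 of 13, as compared with 1.16, 3.68 and 1.89 predicted.

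**Figure D2:**
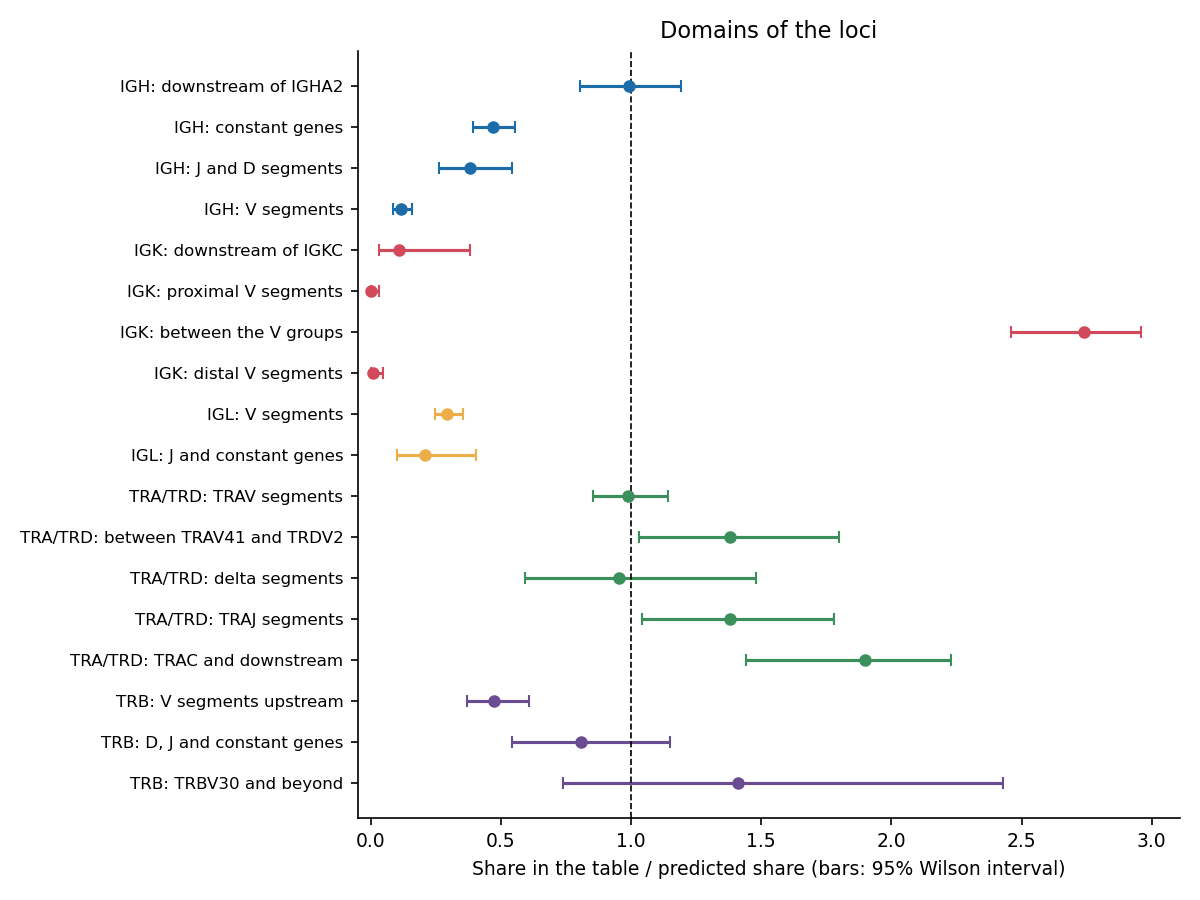
Ratio of the listed to the predicted share (x axis, points, with 95% Wilson intervals as bars) in each annotated domain with at least 30 windows; the dashed line marks a ratio of 1. The IGH V segments (0.115) and the IGK V domains (0 and 0.00834) lie at the left, IGK between the V groups (2.74) lies at the right, and the TRA/TRD domains lie between 0.955 and 1.90.

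In IGL low listing extended over the whole locus. Each of its 18 steps of 50 kb had at least 1 and at most 14 listed windows, and the ratio ranged from 0.0574 to 0.557. The V domain had 111 of 1687 windows listed (6.58%, 5.49% to 7.86%; ratio 0.294) and the J and constant domain 7 of 93 (7.53%, 3.69% to 14.7%; ratio 0.207). None of the 7 J segments and none of the constant genes IGLC1, IGLC2, IGLC3 and IGLC7 or of the 3 constant pseudogenes overlapped a listed window. Their constant windows numbered 13, with 6.6 predicted. IGLL5, an immunoglobulin lambda-like gene whose span includes IGLJ1 and IGLC1 and so shares windows with them, had 0 of 18 windows listed against 5.17 predicted, and 17 of the 18 were unique. VPREB1, which encodes a part of the surrogate light chain of B cell precursors, had 0 of 2. PRAME, a tumor antigen gene in the V domain, had 2 of 24 against 8.24 predicted. The zinc finger genes ZNF280B and ZNF280A had 4 of 50 and 1 of 14, and GGTLC2 had 0 of 7 with no unique window. The IGL V segments with a listed window were 3 of 37 genes and 3 of 36 pseudogenes, among them the pseudogenes IGLVI-42, in a run of 3 windows, IGLV3-24, in a run of 2, and IGLVIV-65 with a single window. A stretch of 51.0 kb from IGLV3-7 to IGLV3-2 held none.

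In TRB the V domain up to TRBV29-1 was low, and the domain from beyond TRBV29-1 to TRBC2 was near its prediction. This domain holds the annotated D, J and constant genes but also other sequence, including PRSS1. The V domain had 56 of 695 windows listed (8.06%, 6.26% to 10.3%; ratio 0.473) and the D, J and constant domain 21 of 104 (20.2%, 13.6% to 28.9%; ratio 0.807). The last domain, with the V gene TRBV30 and the sequence beyond it, had 8 of 39 (20.5%, 10.8% to 35.5%), a ratio of 1.41 (0.739 to 2.43). A run of 9 listed windows covered the D segment, named TRBD1 by the lifted annotation, and TRBJ2-1, TRBJ2-2 and TRBJ2-2P. TRBJ2-7 also overlapped a listed window. The 3 windows of the J segments have a mean of 33.0 CpG sites and 2 of them were listed. TRBC2, a beta constant gene, had 1 of 4 windows listed. Among the V segments 9 of 36 genes and 1 of 11 pseudogenes overlapped a listed window. The pseudogene TRBV12-2 lay in a run of 6 windows, the gene TRBV6-1 in a run of 5 and the gene TRBV7-3 in a run of 3. The longest stretch without a listed window, 51.5 kb, ran from TRBVB to TRBV29-1. PRSS1, the trypsinogen gene inside the locus, had 1 of 8 windows listed, and MTRNR2L6 had 0 of 4.

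Over the 5 loci 57 of the 735 windows that overlap a V segment were listed (7.76%, 6.03% to 9.92%; ratio 0.284). The share was 18.2% over D segments (6 of 33; ratio 0.322), 22.8% over J segments (21 of 92; ratio 0.907) and 33.3% over constant genes (52 of 156, 26.4% to 41.1%; ratio 0.592). It was 8.25% over all other windows (667 of 8083; ratio 0.457). The classes are not spread alike over the loci, since 45 of the 52 listed constant windows are in IGH and 19 of the 21 listed J windows in TRA/TRD. Functional V genes had 42 of 445 windows listed (9.44%, 7.06% to 12.5%) and V pseudogenes 15 of 291 (5.15%, 3.15% to 8.33%), with predicted shares of 28.3% and 25.9%. Within single loci the order was not uniform. Genes and pseudogenes had 3.33% and 2.36% in IGH, 22.6% and 26.3% in TRA/TRD, 3.80% and 7.81% in IGL, and 16.2% and 10.5% in TRB, with overlapping intervals in each, and none was listed in IGK.

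Recombination signals were searched as CACAGTG directly at the segment end. Of 507 V, D and J segments 134 have this exact heptamer, at 144 sites in all. These sites are termed signals whatever their nonamer, and with the spacer kept 49 have a nonamer within 1 mismatch of ACAAAAACC. Of the 144 signals 16 touched a listed window. These were 7 of 32 at TRA/TRD V segments, 3 of 15 at J segments of this locus, 5 of 29 at IGH D segments and 1 of 27 at IGH V segments. Signals in the same window were counted separately, as on both sides of IGHD3-10. For signals at lower coordinates than their segment, as at the TRA/TRD J segments, the spacer of 23 bases was always kept over that of 12. IGHD3-9 counts among the 5 only by the first base of such a span, at 106370500. With the shorter spacer it would not touch a listed window, so that 5 and 16 are upper counts. None of the 21 signals at IGL V segments or the 9 at TRB V segments touched a listed window. The heptamer on either strand occurs in 12% of all autosomal windows and in 15.2% of the windows of the loci. On the autosomes 22.1% of windows with it and 17.0% of those without it were listed. TRA/TRD had the same order, with 20.5% (16.0% to 25.7%) and 13.9%. In TRB the shares were 10.4% (6.07% to 17.4%) and 10.1%, and in IGL 5.65% (3.65% to 8.66%) and 6.86%, which leaves their order undetermined. The order was turned in IGH, with 5.82% (3.91% to 8.59%) and 9.03%. It was also turned in IGK, with 0.361% (0.0638% to 2.02%) and 5.63%, where the listed windows are mostly those of the repeat block.

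Listed windows had more CpG sites than unlisted ones in each locus, by different amounts. The means were 13.9 and 5.98 in IGH, 12.8 and 3.59 in IGK, 6.40 and 5.05 in IGL, 5.08 and 3.32 in TRA/TRD, and 6.29 and 3.93 in TRB. Across the autosomes the listed share rose from 4.97% of windows with 0 to 2 CpG sites to 45.7% of those with 10 to 19. In the IGH V domain it rose from 0.178% to 6.16% between these classes (9 of 146, 3.28% to 11.3%). In the rest of IGH it rose from 6.03% to 30.9%. In IGL it was 3.02% and 11.3%, and of the 26 IGL windows with 20 or more CpG sites 1 was listed (3.85%, 0.682% to 18.9%), as compared with 44.4% of such windows on the autosomes. The low listing of the IGH V domain and of IGL therefore included their CpG-rich windows.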

How the data were processed

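FADU cells of 4 conditions (scrambled control or TET1 knockdown, normoxia or hypoxia) were profiled with 1 library each. According to the study's methods, 5hmC was labeled chemically and enriched, and 50 bp single-end reads were mapped to hg19 with Bowtie 0.12.7. Unique and monoclonal reads were kept, and MEDIPS was among the packages used. That the table holds MEDIPS windows of 500 bp comes from its name and positions. Per the labels, DNA was instead precipitated with a 5-methylcytidine antibody, and which description holds for this table is not settled. Of the deposited table, the positions of the windows were used (unit other, with no normalization). Its 4 columns of values, which match no sample label, were not used, so that the depth per library is unknown here and no condition was compared.

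Positions, CpG sites, GC bases and motifs were read from GRCh37, with GENCODE version 44 lifted to it. The predicted share of a window was the listed share of the 5368882 autosomal windows in its class of CpG number (capped at 40) and GC bases (steps of 25). Known ratios were recovered from listings simulated window by window from this same prediction. That checks the computation and not how well the prediction holds for these data. The 50-base sequences were counted on both strands with no mismatch. A window belongs to a segment if it overlaps it, and to a domain by its midpoint. Wilson intervals at 95% cover counting error only. Python 3.11.15, NumPy 2.4.6, pandas 2.3.3 and Numba 0.67.0 were used.

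Named were all constant genes and J clusters, the other protein-coding genes in the bounds, the V segments (up to 3 per locus) with the longest runs of listed windows, and the longest unlisted stretch per locus. IGHV4-61 and IGHV4-59, the D segments, the single TRAJ segments, the repeat block and the switch regions were chosen after their values were seen. Members and lists were chosen with earlier results of these data known. Alternatives were other predictions, the flanks, unique windows alone, other bounds and another segment assignment.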

Additional observations from a re-analysis of the deposited data

How the results depend on the processing

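The ratio of listed to predicted share stayed below 1 in IGH, IGL and TRB under all alternatives. In IGK it did so too, although unique windows alone brought it near 1. In TRA/TRD (1.12) the ratio fell below 1 under 3 alternatives. These gave 0.844 with no prediction, 0.556 with a prediction from the rest of chromosome 14 and 0.947 relative to the flanks. With a prediction from CpG number alone IGH was 0.384 and IGL 0.347. With no prediction they were 0.486 and 0.377. With the rest of the same chromosome as background IGH was 0.208, IGK 0.508, IGL 0.196 and TRB 0.714. Relative to the flanks IGH was 0.270, IGK 0.616, IGL 0.439 and TRB 0.774. Unique windows alone, relative to unique autosomal windows, gave 0.984 in IGK, with an interval (0.810 to 1.19) that includes 1, and 1.08 without that scaling, and bounds at the first and last segment gave 0.270 in IGH. In alternatives added after seeing the data, the ratio was 0.0112 in IGK without the domain between the V groups and 0.115 in the IGH V segment domain. Among unique windows alone the listed share was 11.2% over V segments, 26.4% over constant genes, 10.5% over other windows and 13.5% over V genes. With at least 50% instead of 90% of the 50-base sequences occurring once, 82.0% of the windows of the loci were unique. The other 23 alternatives stayed within the interval of the main value; the midpoint rule for segments gives the same windows by construction. No paired analysis was possible because no value column could be tied to a library. How absence from the table relates to read depth cannot be told from positions alone.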

Other observations

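The T cell receptor gamma locus, which the bounds above leave out, lies on chromosome 7 from 38279181 to 38407770 and holds 21 annotated segments. Of its 258 windows 39 were listed (15.1%, 95% Wilson interval 11.3% to 20.0%) against a predicted 16.7%, a ratio of 0.903, and 58.5% of its windows were unique. Among the 151 unique windows 29 were listed (19.2%), a ratio of 1.15, on the other side of 1.

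Orphons are copies of immunoglobulin or T cell receptor segments that lie outside the functional loci. Of 72 orphons considered, 8 of the 128 windows that overlap them were listed (6.25%, 3.20% to 11.8%) against a predicted 29.8%, a ratio of 0.210. Of these windows 36 were unique, with 7 listed (19.4%) against a predicted 28.3%, and 92 were not, with 1 listed (1.09%). No window was listed of 24 on chromosome 15 (2 unique), of 29 on chromosome 2 (5 unique) or of 18 on chromosome 22 (13 unique), and 3 of 26 were listed on chromosome 16 (3 unique). The remaining listed windows of the 8 lay on chromosomes not named here.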
